A study of Mus musculus with 12 samples.

Results

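Interferon-stimulated genes are the genes a cell turns on after an interferon binds its receptor. A list of 39 of them, with 5 regulators, 4 sensors of foreign nucleic acid, 19 antiviral effectors, 2 chemokines and 9 interferon-inducible GTPases, was taken from the 17007 genes of a mouse liver cancer expression table. The rule names them as genes induced by type I or type II interferon, or their regulators, and uses no measured value. All 39 had values, and 38 passed the filter on low expression (at least 0.5 FPKM, fragments scaled to gene length and library size, in at least 3 of 12 libraries). Oas3 did not pass, and it is described by its values alone. No member passed through a single group only, 25 members reached 0.5 FPKM in all 12 libraries, and none was at 0 in any library.

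Type I interferons signal through JAK1 and TYK2 to a complex that holds STAT2 and IRF9 and binds a repeat of the letters GAAA in the promoters of its targets, the interferon-stimulated response element (ISRE). Type II interferon, or interferon gamma, acts largely through another promoter element, the gamma-activated site (GAS). The products degrade viral RNA, block viral translation and budding, coat parasite vacuoles, attract lymphocytes, and, in the case of USP18, shut the receptor off again. In liver, hepatocytes and Kupffer cells, the resident macrophages of the organ, both respond to interferon.

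The study asked which genes depend on mTORC1, the growth-regulating kinase complex, in liver tumors driven by c-MYC. Tumors were made in mice with both floxed genes, Rictor fl/fl and Tsc2 fl/fl, by hydrodynamic tail vein injection of plasmids for c-MYC, MCL1 and Cre, so that all 3 tumor groups carried c-MYC, MCL1 and the loss of Rictor, a part of mTORC2, and of Tsc2, a brake on mTORC1. Mice received vehicle, MLN0128 (1 mg/kg/day), which blocks the active site of mTOR, or everolimus (1 mg/kg/day), a rapamycin analog that blocks mTORC1 in part. The drugs were given by gavage 6 days a week for 3 weeks from 6 days after injection, and livers were taken 3.7 weeks after injection; the labels and the methods give 3 weeks, whereas the study's results text states 3 days. Cre was driven by a CMV promoter, which is not specific to hepatocytes, and injected DNA reaches mainly these cells. The normal livers came from wild-type C57BL/6 mice, for which no treatment is listed. Tumor, genotype, injection and gavage therefore cannot be told apart in the comparison with normal liver. Each group held 3 libraries from bulk tissue of separate mice, in which fewer cells of a type and less RNA per cell cannot be told apart.

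Reads recovered from the FPKM numbered 17191971 to 25215151 per library (median 18673047), and the lowest read count of any member in any library was 6. Rictor ran from 1.65 to 2.57 FPKM in normal liver, 1.05 to 1.5 in vehicle, 1.65 to 2.21 under MLN0128 and 1.58 to 1.93 under everolimus. Tsc2 ran from 4.5 to 5.32, 2.01 to 2.31, 2.81 to 3.96 and 2.78 to 2.87 in that order. These are whole-gene levels, and the deleted exons were not measured apart. Both genes were lower in every vehicle library than in any drug-treated one. The drug and vehicle groups thus differed in these levels too, and the reason was not tested. MLN0128 replicates 1 and 2 contained Xist, a transcript of female cells, at 191 and 155 FPKM and the Y-linked Ddx3y at 0, whereas the other 10 libraries held Xist at 0.0699 or less and Ddx3y at 9.6 to 52.8. The sex of the mice thus differed within the MLN0128 group. Results from its replicate 3 alone are given for the members as a whole, not for single roles, markers or the wider pathway list. The MLN0128 counts of those sets mix mice of both sexes. Of 8 hepatocyte markers, 7 were measured, albumin among them, and these summed to 96337 to 112898 FPKM in normal liver and to 2813 to 9581 in the tumors.

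Promoters of 4 members were picked for display from those with the ISRE letters, so that a match in each follows from the choice. Of these, 3 belong to effectors and the fourth to the GTPase gene Igtp. All 4 fell under both drugs by the moderated test described below. Igtp was also lower in tumors by that test, a call that depended on the scaling of the libraries. Members called by treat without the letters, such as Oasl1 and Ifi47, are not shown. Each is the stretch of 160 bases that ends at the base before the gene start (RefSeq, GRCm38.p6), written 5′ to 3′ on the strand of the gene. Capitals mark the ISRE letters GAAANNGAAA or their reverse complement TTTCNNTTTC, and positions count back from the start. Rsad2 (chr12:26456453-26456612, minus strand) encodes viperin, an enzyme that makes a chain-terminating nucleotide, and has 1 match at position -120. Isg15 (chr4:156200819-156200978, minus strand) encodes a ubiquitin-like modifier and has 3 overlapping matches from position -78. Ifit3 (chr19:34583369-34583528, plus strand) encodes a partner of the RNA-binding IFIT1 and has matches at -156 and -122. Igtp (chr11:58199396-58199555, plus strand) encodes the GTPase IRGM3 and has 1 match at -34.
Rsad2: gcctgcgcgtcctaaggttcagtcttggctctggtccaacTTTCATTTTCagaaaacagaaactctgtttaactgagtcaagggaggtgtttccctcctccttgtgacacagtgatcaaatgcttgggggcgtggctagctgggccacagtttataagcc
Isg15: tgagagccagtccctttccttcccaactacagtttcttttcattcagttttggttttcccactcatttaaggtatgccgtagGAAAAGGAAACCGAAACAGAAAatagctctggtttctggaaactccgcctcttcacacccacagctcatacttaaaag
Ifit3: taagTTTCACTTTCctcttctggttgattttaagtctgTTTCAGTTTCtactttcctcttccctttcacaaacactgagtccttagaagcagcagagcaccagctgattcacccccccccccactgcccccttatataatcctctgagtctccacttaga
Igtp: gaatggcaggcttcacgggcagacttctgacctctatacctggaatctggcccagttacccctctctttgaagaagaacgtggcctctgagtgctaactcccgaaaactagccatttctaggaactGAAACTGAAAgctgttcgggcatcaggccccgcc

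A promoter window, 250 bases before to 50 after the start, was on hand for 29 of the 39 members. Searched on both strands, the ISRE letters were present in 16 of them (55.2%), against 3.99% of all 27025 genes with a window. The GAS letters TTCNNNGAA were present in 9 (31.0%), against 9.55% of all genes. Both were found in 5 members (Oas1a, Bst2, Gbp7, Igtp and Tgtp1) and neither in 9. The letters describe the sequence only, and members without a match such as Oasl1 are also induced by interferon. Usp18, Dhx58, Zbp1, Mx1, Mx2, Oas2, Ifi27, Parp14, Gbp6 and Iigp1 were without a window.

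Calls differed in number between the roles. In vehicle-treated tumors, most GTPases were low against normal liver, while the antiviral effectors divided into higher and lower. Under plain library totals that division did not hold, as 11 of 18 effectors rose and none fell by the moderated test described below. There 8802 of 14212 genes rose, a share near that of the effectors, and 2086 fell. Under the mTOR inhibitors, 17 of 18 tested effectors fell by that test with MLN0128 (17.1% of all genes did) and 14 of 18 with everolimus (6.05% of all). The chemokines and most GTPases did not pass it, but a missed threshold does not set a role apart. The GTPase medians were -0.53 (MLN0128) and -0.69 (everolimus), against -0.68 and -0.71 over all members. The heat map of all members by library shows the effector decrease as a block of lower values in all 6 drug-treated tumors.

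**Figure D1:**
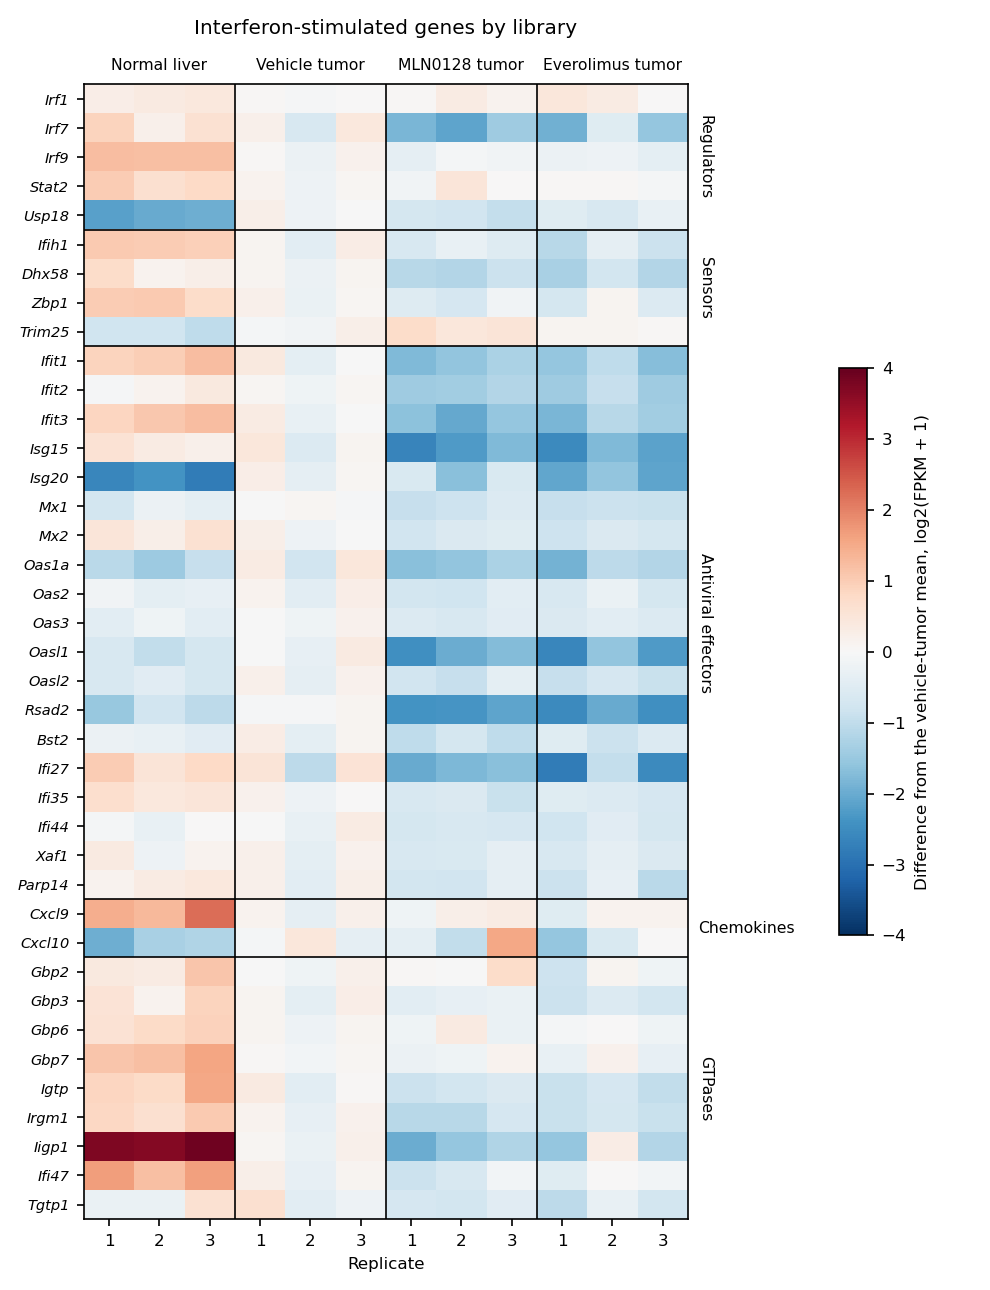
Heat map of the 39 interferon-stimulated genes (rows, ordered by role) in the 12 libraries (columns), with color giving log2(FPKM + 1) minus the mean of the 3 vehicle-treated tumors. The median of the 38 tested members lay between -0.88 and -0.53 in the 6 drug-treated libraries, between -0.32 and 0.14 in the vehicle-treated tumors and between 0.27 and 0.54 in normal liver.

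Calls were made with treat in limma, which asks for more than a 1.5-fold change, and a wider set by limma's moderated test, which asks for any change. Both used log2(FPKM + 1) and a Benjamini-Hochberg adjusted p under 0.05 over all 14397 tested genes. Fold changes below are differences on that log2 scale with their standard error, and they understate the change of genes with low FPKM; ratios are of mean FPKM.

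In vehicle-treated tumors against normal liver, 3 members were called higher by treat (15.9% of all tested genes were), namely Isg20, Usp18 and Rsad2, and 5 lower (16.9% of all), namely Iigp1, Cxcl9, Ifi47, Gbp7 and Irf9. By the moderated test 9 rose (36.0% of all) and 17 fell (33.0% of all). The median over the 38 members was -0.41 against 0.06 over all tested genes. Of the 39 members, 10 were higher in every tumor than in any normal liver (39% of all genes) and 17 lower (35.1% of all). By treat, the share of members lies near that of all genes for the lower direction and below it for the higher. By the moderated test and by non-overlap it lies above that of all genes for the lower direction (44.7% and 43.6%). For the higher direction it lies below by both (23.7% and 25.6%). The count rests on how libraries are scaled: with plain library totals the median of all genes moved by 0.57, treat called 8 members higher and 1 lower, the moderated test 15 and 5, and Mx2, Irf1, Stat2, Ifi35, Gbp3 and Irgm1 changed sign. By the moderated test with plain totals 8802 of 14212 genes rose, a larger share than of the members, and 2086 fell. Under that scaling the 5 members that still fell by the moderated test were Iigp1, Cxcl9, Gbp7, Ifi47 and Irf9, and of these only Iigp1 (-2.85) still passed treat. Without vehicle replicate 1, treat called 8 members lower.

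Under MLN0128, 6 members were called lower than in vehicle by treat (1.65% of all), namely Rsad2, Isg15, Oasl1, Ifit3, Ifit1 and Ifit2, and none higher (0.479% of all). By limma's moderated test 23 fell (17.1% of all) and 1, Trim25, rose (14.9% of all); the unadjusted p was under 0.05 for Trim25 alone among members above vehicle, and limma-voom on the recovered reads also called none higher by treat. The median was -0.68 over the members and -0.01 over all tested genes, and 32 of 38 members had a negative difference. Every MLN0128 library was below every vehicle library for 24 of 39 members (23.4% of all genes). The 6 treat calls became 3 without vehicle replicate 1, vehicle replicate 3 or MLN0128 replicate 1. With MLN0128 replicate 3 as the only MLN0128 library, which matches the vehicle mice in sex and is assumed to vary like the other groups, treat called none lower and the moderated test 9.

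Under everolimus, 4 members were called lower by treat (0.570% of all), namely Rsad2, Oasl1, Isg15 and Isg20, and none higher (0.0347% of all). By limma's moderated test 19 fell (6.05% of all) and none rose (3.78% of all), with no member above vehicle at an unadjusted p under 0.05 and none by limma-voom. The median was -0.71 over the members and 0.03 over all tested genes, and 35 of 38 had a negative difference. Every everolimus library was below every vehicle library for 20 of 39 members (14.8% of all genes). Single libraries decided these counts. The 4 treat calls became 1, Rsad2, without vehicle replicate 1 or 3 or without everolimus replicate 1 or 3. The 19 moderated calls became 9 without vehicle replicate 1, vehicle replicate 3 or everolimus replicate 1.

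The fold-change plot sets the 3 comparisons side by side for each tested member. The drug comparisons share the vehicle libraries, so that an error in those libraries enters both. Isg15, Oasl1 and Rsad2 passed treat as lower in both (0.458% of all tested genes did) and 18 of 38 members the moderated test (5.09% of all).

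**Figure D2:**
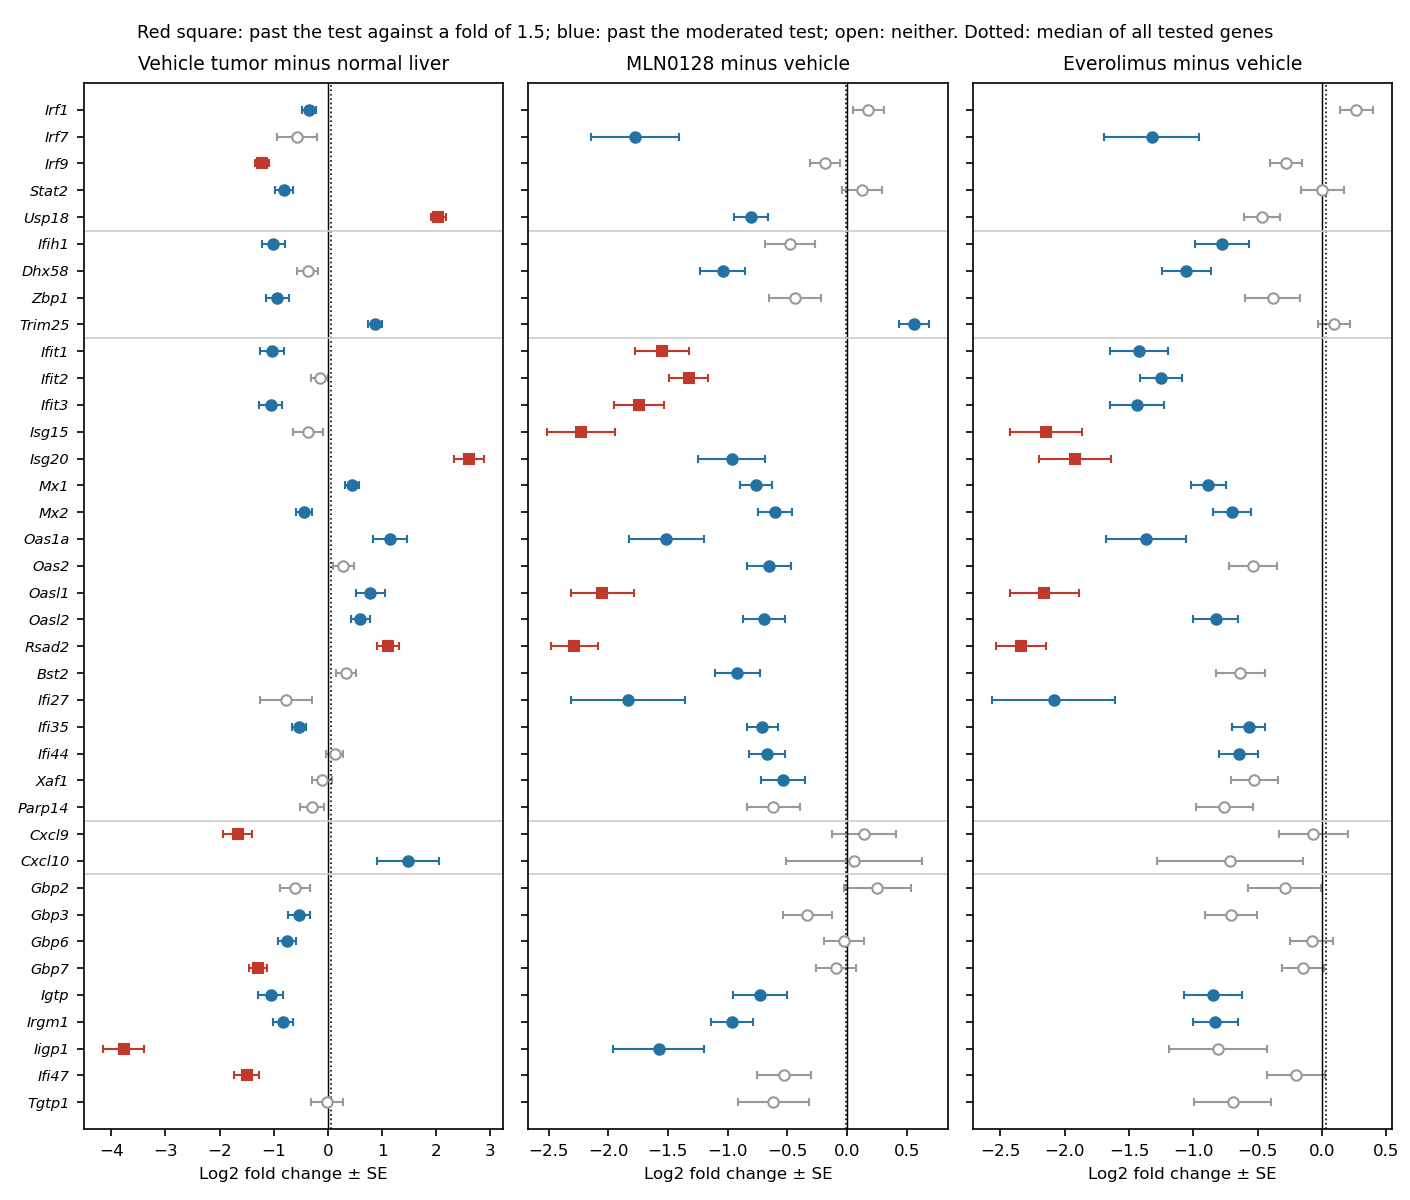
Difference in log2(FPKM + 1) with its standard error for the 38 tested members in vehicle-treated tumor minus normal liver, MLN0128 minus vehicle and everolimus minus vehicle, with red squares for genes past treat, blue for genes past the moderated test and open symbols for neither, and a dotted line at the median of all tested genes. Effectors such as Rsad2 (-2.28 and -2.34) lie far to the left in both drug panels, while Iigp1 (-3.77) is the lowest member in the tumor panel.

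Among the 5 regulators, Usp18 and Irf9 moved in opposite directions between normal liver and tumor. USP18 removes ISG15 from proteins and blocks the type I receptor. Usp18 (chr6:121245906-121270917) measured 7.64, 8.61 and 8.97 FPKM in normal liver, 43.9, 32.2 and 37.4 in vehicle-treated tumors, 22.9, 21.9 and 18.7 under MLN0128 and 26.8, 23.5 and 30.7 under everolimus. All 9 tumors exceeded all 3 normal livers, and both drug groups lay below vehicle without overlap. Usp18 was 4.50-fold higher in vehicle-treated tumors (2.04 ± 0.14, treat adjusted p = 3.661e-06). It fell under MLN0128 by the moderated test (-0.80, adjusted p = 0.00170) and stood at -0.47 under everolimus, with a limma adjusted p of 0.0559.

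IRF9 is the DNA-binding part of the type I interferon complex. Irf9 (chr14:55603571-55610030) measured 9.38, 8.96 and 9.04 FPKM in normal liver and 3.54, 2.74 and 3.91 in vehicle-treated tumors, which were 2.69-fold lower (-1.21 ± 0.12, treat adjusted p = 0.000891). Under plain library totals its difference was -0.41 and passed the moderated test alone. The drug-treated tumors, at 2.32 to 3.14 FPKM, overlapped with vehicle. Stat2, its partner, measured 14.3, 10.6 and 12 FPKM in normal liver against 5.47 to 7.3 in vehicle-treated tumors and fell by the moderated test (-0.81 ± 0.17, adjusted p = 0.00103), with a change of sign under plain library totals. Irf1, a regulator that follows interferon gamma, showed the smallest called difference of the 5 (-0.35 ± 0.13, limma adjusted p = 0.0298), and it too changed sign under that scaling.

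IRF7 amplifies type I interferon production. Irf7 measured 19.1, 11.3 and 15.6 FPKM in normal liver, 11.5, 5.88 and 13.6 in vehicle, 2.05, 1.52 and 3.07 under MLN0128 and 1.85, 6.63 and 2.68 under everolimus. It was the regulator with the largest difference under each drug, although everolimus replicate 2 lay above vehicle replicate 2. Irf7 fell under MLN0128 (-1.78 ± 0.37, limma adjusted p = 0.00419) and under everolimus (-1.32, limma adjusted p = 0.0442) by the moderated test, and passed treat in neither.

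Among the sensors, only Trim25 rose in any comparison. TRIM25 is a ubiquitin ligase that activates the RNA sensor RIG-I. Trim25 (chr11:88999376-89020293) measured 19, 19 and 16 FPKM in normal liver, 31.7, 30.4 and 39.3 in vehicle, 56, 46.2 and 48 under MLN0128 and 36.5, 36.6 and 34.7 under everolimus. The MLN0128 libraries were the highest of all 12. By the moderated test, Trim25 rose in vehicle-treated tumors over normal liver (0.87, adjusted p = 7.098e-05) and under MLN0128 over vehicle (0.56 ± 0.13, adjusted p = 0.00628). Under everolimus the difference was 0.09 (limma adjusted p = 0.682).

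IFIH1, or MDA5, and DHX58, or LGP2, bind viral double-stranded RNA in the cytosol, and ZBP1 binds Z-form nucleic acid. Dhx58 measured 2.98, 2.16 and 3 FPKM in vehicle-treated tumors, 0.71, 0.645 and 1.05 under MLN0128 and 0.518, 1.24 and 0.65 under everolimus. Neither drug group overlapped with vehicle, and Dhx58 fell by the moderated test in both (-1.04 ± 0.19 and -1.05 ± 0.19, limma adjusted p = 0.00209 and 0.00644). Ifih1 measured 6.23 to 6.72 FPKM in normal liver and 1.8 to 3.57 in vehicle, and it fell in tumors (-1.01 ± 0.21, limma adjusted p = 0.00108) and further under everolimus (-0.78 ± 0.21, adjusted p = 0.0387) by the moderated test. Zbp1 fell in tumors against normal liver (-0.93 ± 0.21, limma adjusted p = 0.00219), and its differences under MLN0128 (-0.44) and everolimus (-0.38) did not pass. Under plain library totals the tumor differences of Ifih1 (-0.25) and Zbp1 (-0.31) did not pass either test.

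The antiviral effectors carried most of the drug calls: 17 of the 18 tested fell under MLN0128 by the moderated test (17.1% of all genes did) and 14 of 18 under everolimus (6.05% of all). The MLN0128 count mixes mice of both sexes and is not given for the male library alone. Their median was -0.94 under MLN0128 and -1.07 under everolimus, against -0.01 and 0.03 over all tested genes. Parp14 passed under neither drug (limma adjusted p = 0.0541 in both), and Oas2, Bst2 and Xaf1 did not pass under everolimus. In vehicle-treated tumors against normal liver 6 effectors were higher and 4 lower by the moderated test (36.0% and 33.0% of all genes), with a median of 0.01. With plain library totals 11 were higher and none lower (8802 and 2086 of 14212 genes), with a median of 0.53 where that of all genes was 0.62.

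Rsad2 (chr12:26442746-26456452) measured 1.97, 4.06 and 3.16 FPKM in normal liver, 7.25, 7.34 and 8.15 in vehicle, 0.625, 0.682 and 0.993 under MLN0128 and 0.452, 1.13 and 0.565 under everolimus. The vehicle libraries were above all others, and every drug-treated library was also below every normal liver. Rsad2 was 9.89-fold lower than vehicle under MLN0128 (-2.28 ± 0.20, treat adjusted p = 0.000573) and 10.6-fold lower under everolimus (-2.34 ± 0.20, treat adjusted p = 0.000667), and it passed treat in both whichever library was left out. Its 2.47-fold rise in tumors over normal liver (1.11 ± 0.20, treat adjusted p = 0.0326) was no longer called by treat without normal liver replicate 1 or 3 or without any of the vehicle libraries.

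Isg15 (chr4:156199424-156200818) was abundant in normal liver, at 28.8, 24.2 and 22.3 FPKM, and measured 26.4, 12.7 and 20.7 in vehicle, 2.24, 3.17 and 4.87 under MLN0128 and 2.45, 4.98 and 3.56 under everolimus. Normal liver and vehicle overlapped, and all 6 drug-treated tumors lay below both. The ratio of means was 5.82-fold lower under MLN0128 (-2.23 ± 0.28, treat adjusted p = 0.00758) and 5.44-fold lower under everolimus (-2.15 ± 0.28, treat adjusted p = 0.0165).

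OASL1 is a relative of the 2′-5′-oligoadenylate synthetases that represses Irf7 translation in mice. Oasl1 (chr5:114923240-114937915) measured 3.59, 2.61 and 3.38 FPKM in normal liver, 6.03, 4.71 and 8.21 in vehicle, 0.324, 0.81 and 1.17 under MLN0128 and 0.183, 1.38 and 0.477 under everolimus. As with Rsad2, vehicle was highest and the drug-treated tumors were lowest, without overlap. Oasl1 was 8.22-fold lower under MLN0128 (-2.05 ± 0.27, treat adjusted p = 0.0101) and 9.29-fold lower under everolimus (-2.16 ± 0.27, treat adjusted p = 0.0109). The MLN0128 call was lost without vehicle replicate 3 or MLN0128 replicate 1, and the everolimus calls of Oasl1 and Isg15 without vehicle replicate 1 or 3 or everolimus replicate 1 or 3.

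Ifit1, Ifit2 and Ifit3 lie together on chromosome 19 (chr19:34550694-34650009), and their proteins bind viral RNA and block its translation. Ifit1 measured 9.57, 10.4 and 12.4 FPKM in normal liver, 6.61, 3.39 and 4.7 in vehicle, 0.676, 0.919 and 1.37 under MLN0128 and 0.977, 1.83 and 0.771 under everolimus. Ifit3 took the same order, at 15.6, 18 and 20.3, then 10.3, 6.36 and 8.04, then 1.9, 1.21 and 2.13, then 1.58, 3.24 and 2.46 FPKM. Ifit1 and Ifit3 were lower in vehicle than in normal liver and lower again under either drug, without overlap, and both steps passed the moderated test. Under plain library totals the first step was -0.21 for Ifit1 and -0.19 for Ifit3 and did not pass. Ifit2, at 2.81 to 4.15 FPKM in normal liver and 2.51 to 3.22 in vehicle, did not pass a test in the first step, and measured 0.475, 0.514 and 0.756 under MLN0128 and 0.485, 1.09 and 0.47 under everolimus. All 3 were called by treat under MLN0128 (-1.55 ± 0.22, -1.33 ± 0.16 and -1.74 ± 0.21 for Ifit1, Ifit2 and Ifit3, treat adjusted p = 0.0374, 0.0278 and 0.0104) and by the moderated test under everolimus (-1.42, -1.25 and -1.44). The treat call of Ifit1 was lost without vehicle replicate 1 or 3, MLN0128 replicate 1 or 2, or normal liver replicate 1 or 2. Reads of Ifit3 may be shared with its near copy Ifit3b.

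ISG20 is an exonuclease of single-stranded RNA. Isg20 (chr7:78913424-78920396) measured 1.25, 1.66 and 0.979 FPKM in normal liver, 15.7, 9.87 and 13.7 in vehicle, 8.12, 3.33 and 8.05 under MLN0128 and 2.25, 3.66 and 2.24 under everolimus. All 9 tumors exceeded normal liver, and the drug groups lay between it and vehicle. Isg20 was 10.1-fold higher in vehicle-treated tumors than in normal liver (2.61 ± 0.28, treat adjusted p = 6.179e-05) and 4.82-fold lower under everolimus than under vehicle (-1.92 ± 0.28, treat adjusted p = 0.0430). Under MLN0128 it fell by the moderated test alone (-0.97, adjusted p = 0.0215). The everolimus call of Isg20 was lost without normal liver replicate 1, 2 or 3, vehicle replicate 1 or 3, or everolimus replicate 1 or 3.

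**Figure D3:**
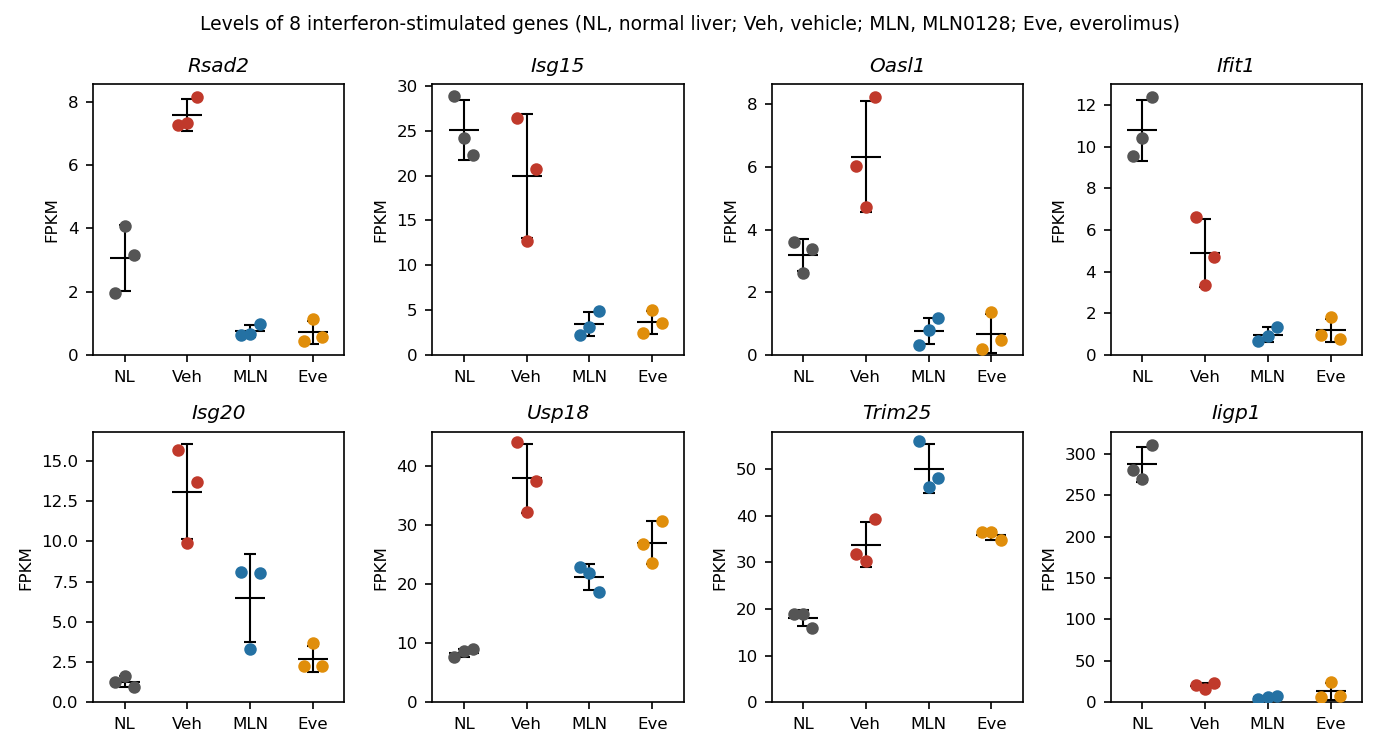
FPKM of Rsad2, Isg15, Oasl1, Ifit1, Isg20, Usp18, Trim25 and Iigp1 in each of the 3 libraries of normal liver, vehicle, MLN0128 and everolimus (points), with mean and SD (bars). Rsad2, for example, averaged 3.06 ± 1.05, 7.58 ± 0.496, 0.767 ± 0.198 and 0.716 ± 0.363 (SD, n = 3) in that order, whereas Iigp1 dropped from 287 ± 21.4 in normal liver to 20.2 ± 3.45 in vehicle.

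Oas1a makes 2′-5′-oligoadenylates that activate RNase L. It measured 1.97, 1.3 and 2.34 FPKM in normal liver, 6.83, 2.67 and 7.7 in vehicle, 0.971, 1.1 and 1.6 under MLN0128 and 0.702, 2.03 and 1.81 under everolimus. The drug groups were below vehicle without overlap, and Oas1a passed the moderated test under MLN0128 (-1.51 ± 0.31, adjusted p = 0.00408) and everolimus (-1.37 ± 0.31, adjusted p = 0.0198). Reads of Oas1a may be shared with its near copies. Oas3, the member not tested, ran from 0.423 to 0.814 FPKM in vehicle and from 0.0398 to 0.196 in the 6 drug-treated tumors, without overlap.

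Mx1 and Mx2 belong to a family of dynamin-like GTPases that trap viral nucleocapsids. Only their transcripts were measured, and whether these mice make working proteins from them was not tested. Mx1 measured 0.319 to 0.839 FPKM in normal liver and 1.09 to 1.27 in vehicle, and 0.149 to 0.497 under the drugs. It rose in tumors (0.45 ± 0.13, limma adjusted p = 0.0106) and fell under MLN0128 (-0.77 ± 0.13) and everolimus (-0.88 ± 0.13) by the moderated test. Its neighbor Mx2 fell in tumors (-0.44 ± 0.15, limma adjusted p = 0.0169, with the sign changed under plain library totals) and under both drugs (-0.60 and -0.70).

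Bst2, or tetherin, which holds budding virions at the membrane, was the most abundant effector, at 242 to 282 FPKM in normal liver, 406, 252 and 360 in vehicle, 164, 202 and 163 under MLN0128 and 237, 183 and 226 under everolimus. It fell under MLN0128 (-0.92, limma adjusted p = 0.00390) and stood at -0.63 under everolimus (limma adjusted p = 0.0549). Ifi27 measured 72, 23.3 and 72.4 FPKM in vehicle, 11.5, 13.5 and 14.8 under MLN0128 and 6.35, 25.4 and 7.74 under everolimus. Its vehicle replicate 2 lay within the everolimus range, and its standard error of 0.48 was the largest of the effectors. It passed the moderated test under both drugs (-1.84 and -2.09, limma adjusted p = 0.0132 and 0.0204). Oasl2, Ifi35 and Ifi44 fell under both drugs too, by 0.57 to 0.82 on the log2 scale, and Oas2 (-0.65) and Xaf1 (-0.54) under MLN0128.

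The chemokines CXCL9 and CXCL10 attract activated T cells through CXCR3, and their genes are neighbors on chromosome 5. Cxcl9 measured 4.06, 3.46 and 7.66 FPKM in normal liver, 1.01, 0.44 and 1.12 in vehicle and 0.298 to 1.32 in the drug-treated tumors. Cxcl10 took the opposite course, at 0.741, 1.73 and 1.91 in normal liver, 5.33, 8.13 and 4.16 in vehicle, 4.1, 2.38 and 18.6 under MLN0128 and 1.27, 3.4 and 5.76 under everolimus. The Cxcl9 groups of liver and vehicle were separate, as were those of Cxcl10, while the drug groups overlapped with vehicle for both genes. Cxcl9 was 5.91-fold lower in vehicle-treated tumors (-1.66 ± 0.27, treat adjusted p = 0.00385), and Cxcl10 rose by the moderated test (1.48 ± 0.57, adjusted p = 0.0356). Under plain library totals Cxcl9 stood at -0.99 and no longer passed treat, and with limma-voom Cxcl10 stood at 2.03 and passed neither test (limma adjusted p = 0.0943). Neither passed a test under a drug. The Cxcl10 difference under MLN0128 was 0.06, and it became -0.69 without MLN0128 replicate 3 and -0.13 without vehicle replicate 3.

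The 9 GTPases, guanylate-binding proteins and immunity-related GTPases that act on the vacuoles of intracellular pathogens, are typical targets of interferon gamma. In vehicle-treated tumors 7 of 9 fell against normal liver by the moderated test (33.0% of all genes did) and none rose, with a median of -0.83. Under plain library totals 3 of 9 fell (2086 of 14212 genes did), and the median relative to all genes was -0.82 where it had been -0.89. Under MLN0128 3 of 9 fell (Igtp, Irgm1 and Iigp1, median -0.53; 17.1% of all genes) and under everolimus 2 of 9 (Igtp and Irgm1, median -0.69; 6.05% of all). All 9 were lower in every everolimus-treated tumor than in any normal liver (35.4% of all genes were).

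Iigp1, whose protein IRGA6 coats parasite vacuoles, was the most abundant member in normal liver with 280, 270 and 311 FPKM. It measured 21.2, 16.4 and 23.1 in vehicle, 4.3, 6.21 and 8.18 under MLN0128 and 6.16, 25.1 and 8.31 under everolimus. Normal liver stood far above all 9 tumors, and everolimus replicate 2 above all other tumors. Iigp1 was 14.2-fold lower in vehicle-treated tumors (-3.77 ± 0.38, treat adjusted p = 1.971e-05), which no other member approached. It fell further under MLN0128 by the moderated test (-1.58, adjusted p = 0.00909), and its difference under everolimus was -0.81 (limma adjusted p = 0.200), from -1.37 without everolimus replicate 2 to -0.43 without everolimus replicate 1.

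Ifi47 measured 16.3, 11.5 and 15.9 FPKM in normal liver and 5.4, 3.3 and 4.86 in vehicle (-1.50 ± 0.22, treat adjusted p = 0.00368), and Gbp7 3.09, 3.39 and 4.64 and then 0.964, 0.752 and 0.994 (-1.29 ± 0.17, treat adjusted p = 0.00262). Both were separate between liver and tumor, and neither passed a test under a drug, with Gbp7 at -0.09 and -0.15. Ifi47 (-0.66) and Gbp7 (-0.65) no longer passed treat in tumors under plain library totals. Igtp measured 15.4, 14.2 and 25 FPKM in normal liver, 10.5, 5.7 and 8.32 in vehicle, 3.9, 4.41 and 4.96 under MLN0128 and 3.85, 4.67 and 3.49 under everolimus. Igtp and Irgm1 both fell in tumors (neither of them under plain library totals, where Igtp stood at -0.20 and Irgm1 at 0.01) and again under each drug, with Igtp at -0.73 and -0.85 and Irgm1 at -0.96 and -0.83 under MLN0128 and everolimus by the moderated test. Gbp3 and Gbp6 fell in tumors against normal liver by the moderated test (neither under plain library totals, where the sign of Gbp3 changed), and Gbp2 and Tgtp1 passed in no comparison. Reads of Gbp6 and Tgtp1 may be shared with near copies.

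MLN0128 and everolimus were also set against each other, at the same dose and duration. By their Xist levels MLN0128 replicates 1 and 2 were female and all everolimus libraries male, so drug and sex are partly mixed in this comparison. No member was called by limma's treat test in either direction (0.00695% of all genes higher under MLN0128, 0.0347% lower), nor by treat with limma-voom, whose moderated test called 1 higher, Trim25. By the moderated test 1 member, Trim25, was higher under MLN0128 (3.99% of all) and none lower (5.54% of all). An unadjusted p under 0.05 was reached by 3 of 38 (Trim25, Isg20 and Usp18). Trim25 differed by 0.46 ± 0.13 (95% interval 0.19 to 0.74, limma adjusted p = 0.0414), a call lost without any of 7 single libraries, among them MLN0128 replicates 1 and 3 and everolimus replicates 1 and 3. Isg20 was 0.95 ± 0.28 higher under MLN0128 (95% interval 0.34 to 1.57, limma adjusted p = 0.0541), and Usp18 differed by -0.33 (95% interval -0.64 to -0.03, limma adjusted p = 0.152).

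The intervals leave room for a difference in many members. For 35 of 38 the 95% interval holds 0, but for only 17 of 38 does it lie within 1.5-fold either way. It ran from -0.37 to 0.48 for Rsad2, from -0.70 to 0.54 for Isg15, from -0.47 to 0.69 for Oasl1 and from -0.62 to 0.37 for Ifit1. The median over the members was 0.05, against -0.03 over all tested genes.

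Single mice moved the members together. Vehicle replicate 2 was the lowest of its group for 36 of 39 members, everolimus replicate 2 the highest of its group for 32 and MLN0128 replicate 3 the highest for 28, where 36.3%, 31.4% and 31.4% of all tested genes were. The members below all 3 vehicle libraries numbered 33, 30 and 26 in the MLN0128 libraries and 35, 21 and 31 in the everolimus libraries, where 29.5% to 38.7% of all tested genes were.

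Markers of macrophages moved with the members in some groups. The 12 Kupffer cell and macrophage markers, all measured and none at 0, summed to 410, 521 and 459 FPKM in normal liver, 190, 176 and 248 in vehicle, 101, 84.1 and 157 under MLN0128 and 121, 285 and 138 under everolimus. Everolimus replicate 2 and MLN0128 replicate 3, the libraries of their groups with the most members at their highest, also had the highest marker sums of their groups. The same held for vehicle replicate 3, the highest of its group for 21 of 39 members (31.4% of all genes). In normal liver it did not hold. Replicate 2 there had the highest sum, yet it was the lowest of its group for 20 of 39 members (31.8% of all genes) and the highest for 6 (36.7% of all). By the moderated test 9 of 12 markers fell and 1 rose in vehicle-treated tumors against normal liver (33.0% and 36.0% of all genes). These tumor counts are given for the scaling of the deposited FPKM only. Of the 12, 5 fell under MLN0128 (17.1% of all genes) and 1, Cd68, under everolimus (6.05% of all). Albumin was highest in the same everolimus library, with Alb at 4860 FPKM against 482 to 1840 in the other 8 tumors. The 4 pan-leukocyte markers summed to 6.06 to 16.5 FPKM over the 12 libraries and none passed a test under a drug, and the T and NK cell markers summed to 1.58 to 5.65. Of 4 plasmacytoid dendritic cell markers 3 were measured, and they summed to 0.14 to 0.58 in normal liver, 4.20 to 7.30 in vehicle, 0.06 to 1.51 under MLN0128 and 3.54 to 5.38 under everolimus. Cox6a2, which is also a muscle gene, was listed at 0 in MLN0128 replicate 2, made up most of the sum in the other 8 tumors and was the only one tested, higher in tumors (2.52) and lower under MLN0128 (-1.82) by treat and at -0.21 under everolimus, while the defining marker Siglech ran from 0.028 to 0.312 FPKM over the 12 libraries. The part of these cell types in the results was not tested.

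**Figure D4:**
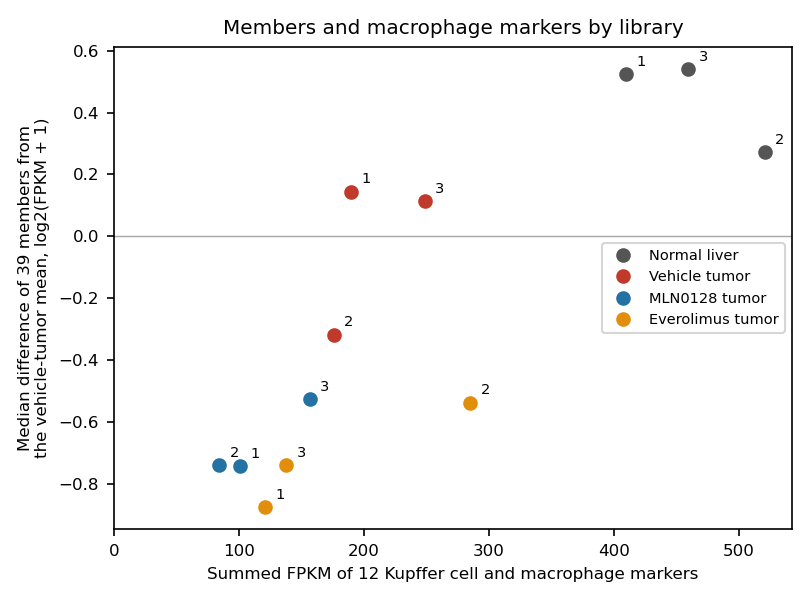
Summed FPKM of 12 Kupffer cell and macrophage markers (x axis) against the median difference of the 38 tested members from the vehicle mean in log2(FPKM + 1) (y axis), 1 point per library, colored by group. The axis label reads 39, but Oas3 was left out of the median. Everolimus replicate 2 has a marker sum of 285, above all vehicle libraries, and a member median of -0.54, below them.

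The rest of the pathway was followed with a list of 102 other genes, of which 79 had values and 71 were tested. By treat, 1 was higher and 10 lower in vehicle-treated tumors than in the normal livers (15.9% and 16.9% of all genes). Under MLN0128 1 was lower (Rtp4, 1.65% of all) and under everolimus 1 (Ifnlr1, 0.570% of all). By the moderated test 11 rose and 34 fell in tumors (36.0% and 33.0% of all genes), 1 rose and 27 fell under MLN0128 (14.9% and 17.1% of all), and none rose and 15 fell under everolimus (3.78% and 6.05% of all). The tumor counts of this list are given for the scaling of the deposited FPKM only, not for plain library totals. The 21 interferon genes themselves were among those without values, so they were not analysed here.

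Among the receptors, Ifnlr1, the specific chain of the type III interferon receptor, measured 0.0443, 0 and 0 FPKM in normal liver, 2.91, 3.74 and 3.12 in vehicle, 0.926, 1.22 and 0.67 under MLN0128 and 0.152, 0.885 and 0.499 under everolimus. It was near the limit of detection in normal liver and present in all 9 tumors, highest in vehicle. It rose in tumors (2.06, treat adjusted p = 1.322e-05) and fell under everolimus (-1.52, treat adjusted p = 0.0164) and, by the moderated test, under MLN0128 (-1.14, adjusted p = 0.000697). Ifnar2, a chain of the type I receptor, went from 18.3, 20.2 and 18.1 FPKM in normal liver to 5.86, 4.67 and 6.91 in vehicle (-1.56, treat adjusted p = 8.380e-05, and -0.69 without a treat call under plain library totals), and its partner Ifnar1 differed by -0.04. Jak1, a kinase on these receptors, fell by the moderated test under MLN0128 (-0.87, adjusted p = 0.00116) and everolimus (-0.50, adjusted p = 0.0447).

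Rtp4, an interferon-induced chaperone of receptors, measured 7.14, 3.56 and 7.29 FPKM in vehicle, 1.01, 1.01 and 1.82 under MLN0128 and 1.02, 2.4 and 1.26 under everolimus. It resembled the effectors, with no overlap between vehicle and either drug, and its MLN0128 difference was -1.59 (treat adjusted p = 0.0484).

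Members with and without the ISRE letters had medians close to each other under the drugs. Among the 28 tested members with a window, the 15 with ISRE letters had medians of -0.73 under MLN0128 and -0.78 under everolimus, and the 13 without had -0.67 and -0.57. In vehicle-treated tumors against normal liver the medians lay further apart, at -0.61 with the letters (range -1.29 to 1.48) and -0.15 without (range -1.66 to 2.61). Rsad2, Isg15, Ifit1 and Ifit3 hold the letters, whereas Oasl1, Ifit2 and Isg20 do not, and Igtp and Gbp7, which do, ran from -0.85 to -0.09 under the drugs.

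Set against normal liver rather than vehicle, the drug-treated tumors were low for most members. Every MLN0128 library was below every normal liver for 30 of 39 members (36.3% of all genes) and every everolimus library for 31 of 39 (35.4% of all), subject to the scaling between liver and tumor given above.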

How the data were processed

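RNA-seq was run on 12 bulk libraries, 3 mice in each of 4 groups. The FPKM were deposited by the authors, who outsourced library preparation and sequencing (Novogene), quantified Ensembl genes and named them with org.Mm.eg.db. Per the submitters' processing notes the build was GRCm38 and reads were checked with FastQC 0.11.7; the aligner is not given in the sources used here. Reads were recovered from FPKM and exon lengths (98.2% to 98.8% of values of up to 20 reads came out whole within 0.1). The table's own scaling relative to plain totals ran from 0.585 to 1.37.

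Values were taken as log2(FPKM + 1) and fitted with limma 3.58.1 in R 4.3.3 (4 group means, 12 libraries, 8 residual degrees of freedom, intensity trend). Adjusted p-values are Benjamini-Hochberg over all 14397 tested genes. The fit was tested on simulated data. Gene positions came from GENCODE M21 (16897 symbols matched) and promoters from RefSeq GRCm38.p6; 22 symbols had been turned into dates. The members and lists were chosen with earlier results of these data known. All 39 members are accounted for. Per-library values are given for those called by treat (at most 8 per direction) and, by role, for the member with the highest mean FPKM over the 12 libraries. Where treat called too few members in a comparison, those with the smallest moderated p were added. Other members given in full were chosen after their values were seen. No set test was run. A withheld gene of the wider pathway list is not reported here and is left out of that list's counts.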

Additional observations from a re-analysis of the deposited data

How the results depend on the processing

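Without any single library in turn, treat called 2 to 4 members higher and 5 to 8 lower in vehicle-treated tumors against normal liver (moderated test 7 to 10 and 14 to 18), 3 to 8 lower under MLN0128 (moderated 18 to 26), and 1 to 6 lower under everolimus (moderated 9 to 25). Between the drugs the moderated test called 0 to 2 members higher under MLN0128. The medians ranged from -0.57 to -0.26 (tumor), -0.83 to -0.59 (MLN0128), -0.88 to -0.62 (everolimus) and -0.08 to 0.14 (between drugs). Cxcl10 under MLN0128 ranged from -0.69 to 0.58, negative without MLN0128 replicate 3 or vehicle replicate 3 (-0.13). With plain library totals, tumor against normal liver gave 8 members higher and 1 lower by treat, 15 and 5 by the moderated test (8802 and 2086 of 14212 genes) and a median of 0.34. Under that scaling the moderated test gave 2 members higher under MLN0128 than everolimus (1198 of 14212 genes). With limma-voom on recovered reads treat called 9 lower in tumors, and the drug medians were -1.12 (MLN0128) and -1.14 (everolimus). A pseudocount of 0.25 gave -0.96 and -0.99, as a smaller pseudocount shrinks low genes less. The moderated test with a fold above 1.5 called 8 higher and 13 lower in tumors, 22 lower under MLN0128 and 18 under everolimus; with no fold requirement it called 9 and 17, 1 higher and 23 lower, 19 lower, and 1 higher under MLN0128 than everolimus. With MLN0128 replicate 3 alone, treat called 0 lower, the moderated test 0 higher and 9 lower, and the difference between drugs had a median of 0.22 and 0 members higher. Fitting 2 groups only left 2 treat calls under everolimus and 0 members higher between drugs. The causes of these changes were not tested beyond the fewer samples of the last 2 settings.

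Same-numbered libraries did not deviate together (correlations -0.289 to 0.148, median -0.061, 18 pairs), so replicate numbers were not taken as pairs. With a replicate block, Ifit1 under MLN0128 and Isg20 under everolimus lost their treat calls and the moderated test called 0 members higher under MLN0128 than everolimus. The moderated counts under each setting, plain totals included, were added after seeing the data.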
